A study of Mus musculus with 6 samples.

Results

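The genes described here are 43 heat shock and unfolded protein response genes, chosen by name for their roles in protein folding, among the 24348 genes counted in synovial fibroblasts from mice given immune complexes (ICs) or vehicle. All 43 were in the table and all 43 passed the filter on low counts, which 19925 genes passed. They comprised 14 cytosolic heat shock genes, 3 mitochondrial chaperones, 12 endoplasmic reticulum (ER) folding genes, 5 sensors and transcription factors of the unfolded protein response, 5 stress output genes and 4 genes of ER-associated degradation. Fibroblasts were flow sorted from the digested knee synovium of wild-type C57BL/6 mice (C57BL/6J background per the study's methods), and bulk total RNA was sequenced from 3 IC and 3 vehicle libraries. In the IC group, preformed complexes of ovalbumin with rabbit anti-ovalbumin antibodies were injected intravenously (i.v.), and the vehicle group is labelled as the control. Both groups shared the strain, the tissue digestion and the sort. The study's methods describe adult mice of both sexes for its in vivo experiments in general. The interval between injection and collection, the sorting gate and whether a library came from 1 mouse or a pool are not given for these libraries in the sources used here. The p-values therefore measure the spread between these libraries, which may be in part technical.

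Heat shock proteins are chaperones that hold or refold other proteins. In the cytosol, heat shock factor 1 (HSF1) raises their transcription when unfolded proteins accumulate. The ER has its own set, which folds secreted and membrane proteins such as the collagens and matrix proteins that fibroblasts export, and the sensors IRE1, PERK and ATF6 watch its load. IRE1 splices Xbp1 mRNA, ATF6 is cut into a transcription factor and PERK favours translation of ATF4, so that much of the signalling takes place after transcription and is not seen in gene counts.

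The DESeq2 Wald test called 5 of the 43 members (11.6%) at an adjusted p under 0.05, against 2.1% of all genes tested. The edgeR quasi-likelihood test called none of the members. Of all genes tested, 3870 had no adjusted p from DESeq2 and could not be called, and none of these were members. Members and lists were chosen with earlier results of these data known, so shares set beside all genes are descriptions and not independent tests. All 5 encode proteins of the ER and were higher after IC challenge. These were Sdf2l1, Hyou1, Pdia6 and Hsp90b1 among the folding genes, and Edem1 among the degradation genes. The promoter stretches of the called members with a RefSeq window are shown first, because 2 of them hold the ER stress element that ATF6 and XBP1 bind. Each stretch begins 220 bases before the RefSeq transcription start, is printed 5′ to 3′ on the strand of the gene, and ends at the start or at the first exon base of the GENCODE M21 annotation, whichever comes first. Capitals mark matches to the element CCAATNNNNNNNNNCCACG on either strand, and coordinates are on GRCm38.p6.
Hsp90b1 (chr10:86705510-86705664, minus strand): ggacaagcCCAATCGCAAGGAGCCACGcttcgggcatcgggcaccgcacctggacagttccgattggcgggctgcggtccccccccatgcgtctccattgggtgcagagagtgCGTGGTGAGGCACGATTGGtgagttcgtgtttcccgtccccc
Pdia6 (chr12:17266369-17266544, plus strand): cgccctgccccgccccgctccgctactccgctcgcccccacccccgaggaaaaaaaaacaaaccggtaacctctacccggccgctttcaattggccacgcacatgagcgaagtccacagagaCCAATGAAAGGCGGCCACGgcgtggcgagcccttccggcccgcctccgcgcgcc
Sdf2l1 (chr16:17132384-17132603, minus strand): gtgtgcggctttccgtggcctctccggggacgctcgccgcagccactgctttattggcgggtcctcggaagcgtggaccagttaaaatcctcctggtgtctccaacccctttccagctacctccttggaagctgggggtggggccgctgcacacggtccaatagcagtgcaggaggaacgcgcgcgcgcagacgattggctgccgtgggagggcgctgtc
Edem1 (chr6:108828421-108828640, plus strand): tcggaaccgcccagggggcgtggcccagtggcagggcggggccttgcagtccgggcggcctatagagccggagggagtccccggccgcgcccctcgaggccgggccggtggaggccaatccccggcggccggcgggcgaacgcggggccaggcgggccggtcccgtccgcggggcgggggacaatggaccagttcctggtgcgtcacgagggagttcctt
Hsp90b1 had a pair of matches in opposite orientations and Pdia6 had 1. Sdf2l1 and Edem1 had no match to these letters in the window.

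A window from 250 bases before to 50 bases after the start was found for 34 of the 43 members. Windows were missing for Hsp90ab1, Atf6, Hspa9, Hspa8, Hyou1, Hspa13, Hsp90aa1, Manf and Hsf1. The ER stress element matched in 6 of these 34 members, 5 of them among the 9 ER folding genes with a window. Of these 6, DESeq2 called Hsp90b1 and Pdia6, and did not call Hspa5, Dnajc3, Creld2 and Syvn1. Over all genes it matched in 39 of 32851 mouse promoter windows (0.119%), which belong to 37 of 27025 genes (0.137%). A related form, ATTGGNCCACG (ER stress element II), matched in Dnajb11 and Herpud1 and in 12 windows of all genes (0.0365%), which belong to 12 genes (0.0444%). The matches are shown so that the spacing can be compared, each read 5′ to 3′ on the strand that holds the motif, with the fixed letters in capitals.
Hspa5 (chr2:34772025-34772043, plus strand): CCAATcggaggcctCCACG
Hsp90b1 (chr10:86705638-86705656, minus strand): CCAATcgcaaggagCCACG
Hsp90b1 (chr10:86705533-86705551, plus strand): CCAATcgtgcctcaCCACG
Pdia6 (chr12:17266491-17266509, plus strand): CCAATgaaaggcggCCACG
Dnajc3 (chr14:118937827-118937845, plus strand): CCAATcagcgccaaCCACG
Creld2 (chr15:88819520-88819538, minus strand): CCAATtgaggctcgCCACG
Syvn1 (chr19:6046532-6046550, plus strand): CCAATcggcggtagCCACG
Dnajb11 (chr16:22857852-22857862, plus strand): ATTGGcCCACG
Herpud1 (chr8:94386377-94386387, plus strand): ATTGGgCCACG
None of the 10 cytosolic heat shock genes with a window held either form. The matches are descriptions of letters in these windows, and binding was not measured.

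The heat shock element that HSF1 binds was searched as GAANNTTCNNGAA on both strands and was found in 198 of all windows (0.603%), from 179 genes (0.662%). Among the members it matched in Hsph1, and at a pair of overlapping sites in the promoter shared by Hspd1 and Hspe1, which are transcribed away from each other. Of the 10 cytosolic heat shock genes with a window, 1 matched, and Hspa1a, Hspa1b and Bag3 were among those that did not. Only this spelling was searched, so a window with no match is not shown to lack the element. The matches are printed because the mitochondrial pair shares its sites.
Hsph1 (chr5:149636288-149636300, plus strand): GAActTTCcaGAA
Hspd1 (chr1:55088064-55088076, plus strand): GAAccTTCcgGAA
Hspd1 (chr1:55088059-55088071, minus strand): GAAggTTCtaGAA
The composite element of ATF4 and C/EBP proteins, searched as TGATGNAA on both strands, was found in 1304 windows (3.97%), from 1219 genes (4.51%). It matched in 3 of the 5 stress output genes and in Herpud1.
Asns (chr6:7693225-7693232, minus strand): TGATGaAA
Chac1 (chr2:119351049-119351056, minus strand): TGATGcAA
Trib3 (chr2:152344039-152344046, plus strand): TGATGtAA
Herpud1 (chr8:94386317-94386324, minus strand): TGATGcAA

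Levels are given as FPKM, counts scaled to the exon length of the gene and the total of the library, which allows genes of different length to be compared. Hspa8, the constitutive cytosolic HSP70, had the highest mean level over the 6 libraries at 334 FPKM. Hspa5 (BiP), the ER HSP70 that also holds the stress sensors inactive, followed at 303 FPKM. The spread of these neighbours overlapped, since Hspa8 stood at 324 ± 14.3 FPKM after IC and 345 ± 6.48 in vehicle, and Hspa5 at 318 ± 35.8 and 287 ± 13.8 (SD, n = 3 each). Atf4 had a mean level of 238 FPKM, Hsp90ab1 one of 183 FPKM and Ppp1r15a one of 163 FPKM. At the other end, Chac1, a glutathione-degrading enzyme induced by ATF4, had 1.06 FPKM. Median levels were 47.9 FPKM for cytosolic heat shock genes, 26.0 for ER folding genes, 25.9 for mitochondrial chaperones, 19.0 for degradation genes, 14.7 for sensors and factors, and 5.50 for stress output genes.

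**Figure D1:**
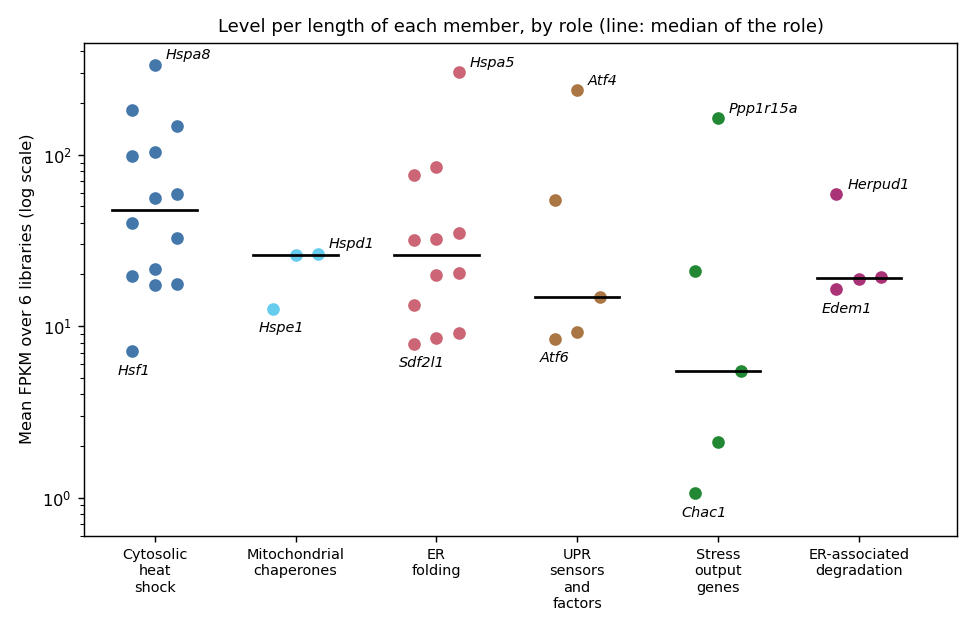
Mean level of each of the 43 members over the 6 libraries (FPKM, log scale), grouped by role, with a line at the median of each role and the highest and lowest member named. Hspa8, Hspa5, Atf4, Hsp90ab1 and Ppp1r15a lie above 150 FPKM in their roles, and Chac1 is lowest at 1.06 FPKM.

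Sequencing depth was high in each library, with 40114331 to 56714304 counts, of which the members took 0.882% to 0.967%. The fibroblast marker list (9 genes, collagens, Pdgfra and others) summed to 44329 to 46047 CPM (counts scaled to a common library total) in the IC libraries and 45237 to 55084 in the vehicle libraries. Within it Prg4, the lubricin of lining fibroblasts, was higher after IC, and Col3a1 and Lum were lower. Markers of other cell types summed to far lower CPM. Mean levels of single genes reached 28.6 FPKM for Tek of the endothelial list and 21.1 for Cd68 of the macrophage list. In sum, the markers of satellite cells and endothelial cells did not overlap between the groups, while those of skeletal muscle and macrophages did. Satellite cell markers (8 genes) summed to 40.2 to 89.9 CPM after IC and 112.7 to 184.7 CPM in vehicle. Of these, Myog did not pass the filter on low counts and was at 0 in IC 2 and IC 3. It was also low in Vehicle 1 and Vehicle 2, and its vehicle level came mostly from Vehicle 3 (143 normalised counts). Skeletal muscle markers (10 genes) summed to 14.8 to 30.2 CPM and 25.1 to 69.6 CPM, endothelial markers (8 genes) to 203.5 to 270.7 CPM and 273.2 to 323.6 CPM, and macrophage markers (5 of 8 analysed) to 31.5 to 49.5 CPM and 38.2 to 50.2 CPM, with Cx3cr1 at 0 in IC 3 and Vehicle 2. DESeq2 called 3 of the 7 satellite cell markers tested, Myf5 (log2 fold change -2.08), Chodl (-0.57) and Asb5 (-2.07), all lower after IC. For each of these 7 the IC values lay below the vehicle values, against 7.67% of all genes tested. It also called Cdh5 and Kdr of the endothelial list and Myh1 of the skeletal muscle list, again lower after IC. Immediate early genes, which tissue digestion can induce (12 genes), summed to 28781 to 29027 CPM after IC and 26067 to 27580 CPM in vehicle, which did not overlap. Of the 12, DESeq2 called 2 higher, Fosb (log2 fold change 0.28, adjusted p = 0.00350) and Nr4a1 (0.27, adjusted p = 0.00637), and 0 lower. The part of these lists in the results that follow was not tested, and in bulk libraries fewer cells of a type and less RNA per cell cannot be told apart.

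Over all 19925 genes, 419 (2.1%) had a DESeq2 Wald test p under 0.05 after Benjamini-Hochberg adjustment and are referred to as called, 205 higher after IC (1.03%) and 214 lower (1.07%). Among the members it called 5 of 43 (11.6%), all higher. The edgeR quasi-likelihood test called 37 genes (0.186%) and none of the 43 members, of which 10 had an unadjusted edgeR p under 0.05 and 12 an unadjusted DESeq2 p under 0.05. The call of each member thus rests on the DESeq2 test. No overlap between the IC and the vehicle libraries was seen for 11 members (25.6%), against 15.8% of all genes tested. In 6 members the IC values were above (8.09% of all genes) and in 5 below (7.67% of all genes).

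The log2 fold changes of most members were close to 0. The median absolute log2 fold change was 0.14, against 0.17 over all genes tested, and 3 of 43 members (6.98%) differed by over 0.5 on the log2 scale, against 17.7% of all genes. The estimates of the members were also more precise, with a median SE of 0.0964 against 0.219 over all genes tested, and the part of this in the comparison was not tested. For 31 of the 43 members the 95% interval of the log2 fold change, which is not adjusted for the number of genes, lay within 0.5 of 0 on either side. By role, this held for 13 of 14 cytosolic heat shock genes, 3 of 3 mitochondrial chaperones, 5 of 5 sensors and factors and 4 of 4 degradation genes, but for 4 of 12 ER folding genes and 2 of 5 stress output genes.

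**Figure D2:**
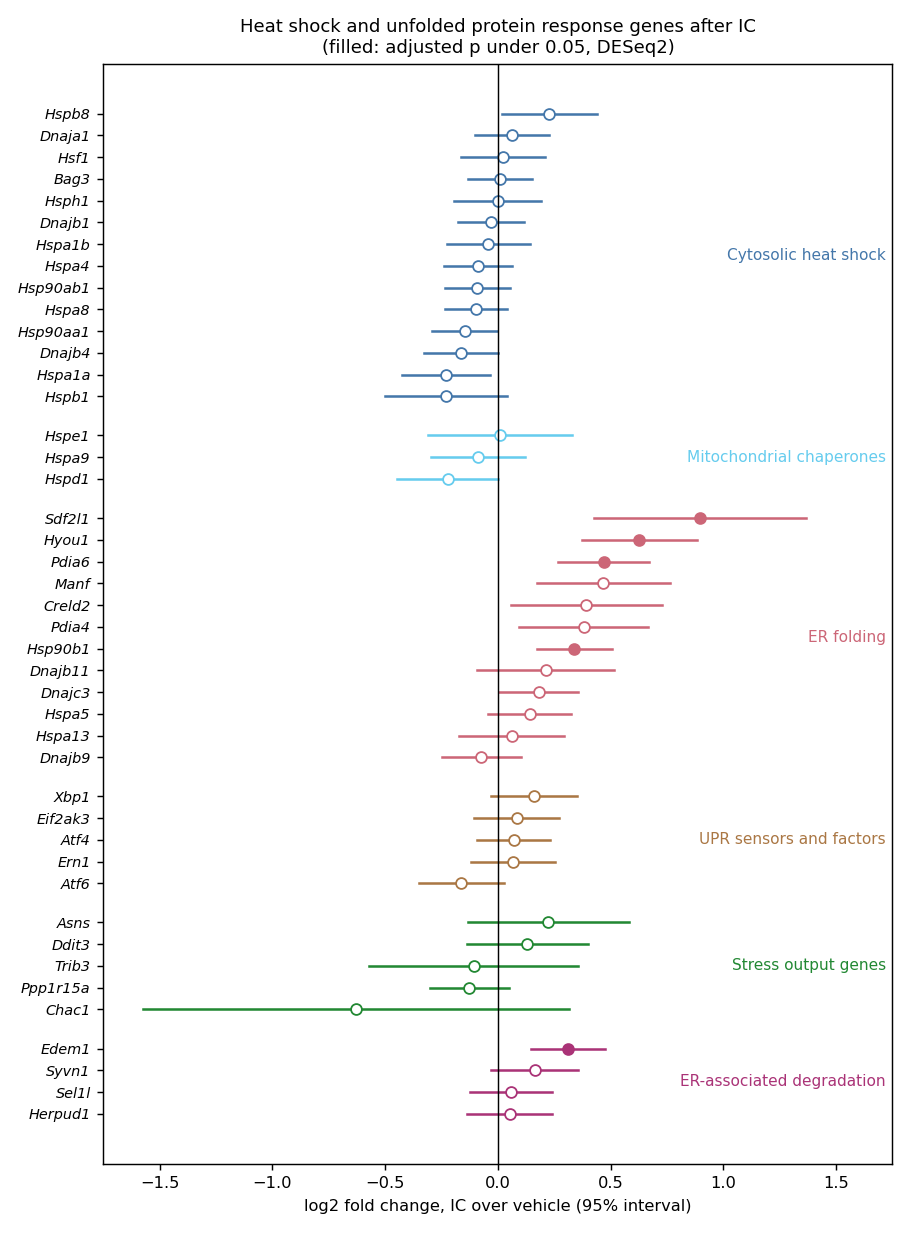
Log2 fold change (IC over vehicle, DESeq2) of the 43 members with 95% intervals, grouped by role, with filled points for members at an adjusted p under 0.05. The 5 called members lie to the right of 0, and the cytosolic heat shock genes lie close to 0.

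ER folding genes were the role with the most members called. Of 12, 4 were called higher after IC (33.3%, against 1.03% of all genes tested) and 0 lower. Of the 12, 11 had a log2 fold change above 0, against 9881 of all 19925 genes tested. The median of the role was 0.36, against -0.00 over all genes. Sdf2l1 encodes an ER protein that works with BiP co-chaperones and keeps unfolded proteins from aggregating. Its normalised counts were 411, 499 and 733 in IC 1, IC 2 and IC 3, and 302, 344 and 236 in Vehicle 1, Vehicle 2 and Vehicle 3. All 3 IC libraries were above the 3 vehicle libraries, and IC 3 was far above the other 2. The means were 548 ± 166 and 294 ± 54.4 (SD, n = 3 each), a 1.86-fold difference (log2 fold change 0.90, SE 0.24, DESeq2 adjusted p = 0.0121), the largest rise among the members.

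Hyou1 (GRP170) is a large ER chaperone that exchanges nucleotide on BiP. It had 7222, 8049 and 10415 normalised counts in the IC libraries and 4945, 6429 and 5250 in the vehicle libraries, in the order of their numbers. The groups did not overlap, and IC 3 was again highest. The mean was 8562 ± 1657 after IC and 5541 ± 784 in vehicle (SD, n = 3 each), 1.55-fold higher (log2 fold change 0.63, SE 0.129, DESeq2 adjusted p = 0.000238). Pdia6, a protein disulfide isomerase that also acts on the IRE1 sensor, had 5916, 6317 and 7613 normalised counts after IC and 4529, 4997 and 4811 in vehicle. The vehicle libraries lay close together and all below the IC libraries. The rise was 1.38-fold, from 4779 ± 235 to 6616 ± 887 (SD, n = 3 each), with a log2 fold change of 0.47, SE 0.103 and a DESeq2 adjusted p of 0.000722.

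Hsp90b1 (GRP94), the ER HSP90 needed to fold integrins and Toll-like receptors, had 17363, 18029 and 19931 normalised counts after IC and 13329, 15248 and 15143 in vehicle. The groups did not overlap and Vehicle 1 was lowest. The mean rose 1.27-fold, from 14573 ± 1079 to 18441 ± 1333 (SD, n = 3 each; log2 fold change 0.34, SE 0.0853, DESeq2 adjusted p = 0.00543). Of its exonic bases, 15.7% are also covered by exons of other annotated genes, 1 of which, 1810014B01Rik, lies on the opposite strand, and the strand setting of the counting is not given in the sources used here. Creld2, an ER disulfide isomerase, lay apart between the groups but was not called. It had 797, 932 and 1253 normalised counts after IC and 721, 793 and 760 in vehicle, with IC 1 just above the highest vehicle library. The log2 fold change was 0.39 with a DESeq2 adjusted p of 0.292.

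**Figure D3:**
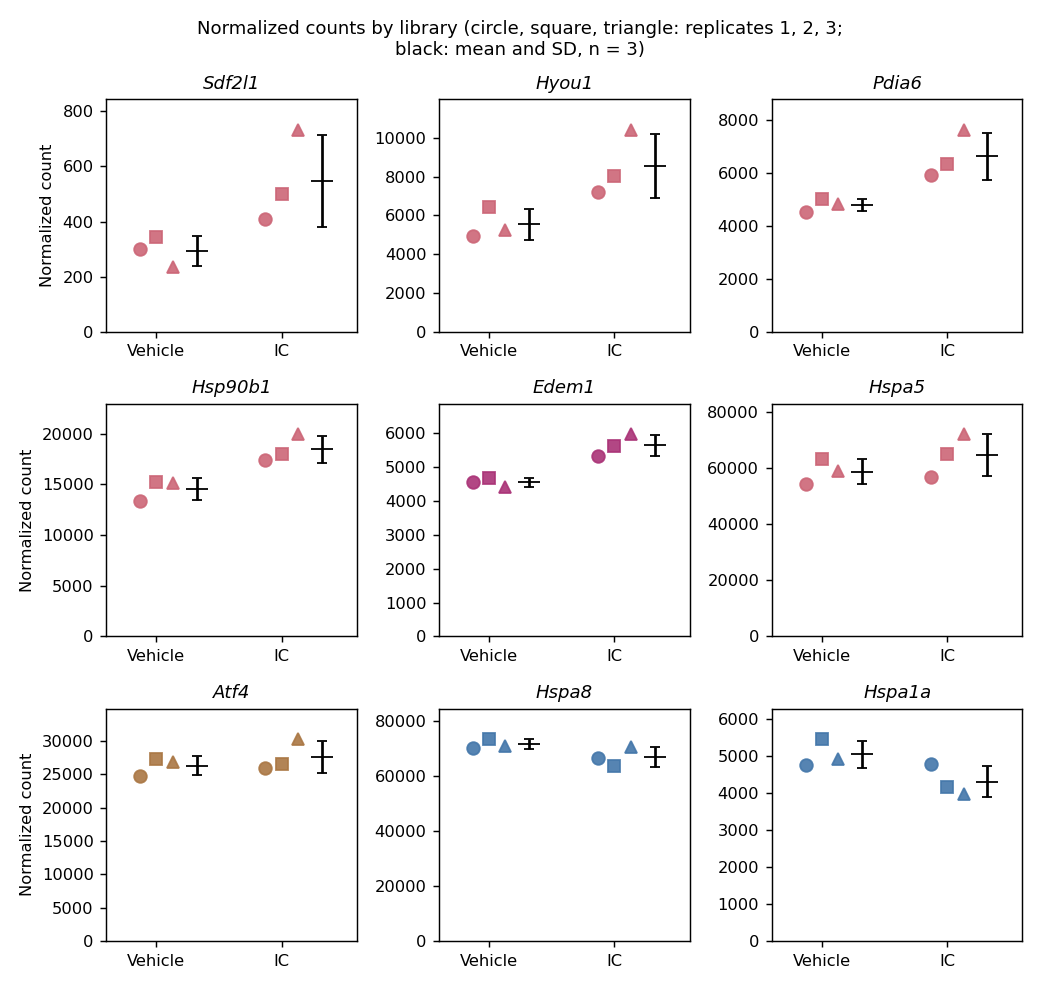
Normalised counts in each library for members described in the text (circle, square and triangle for replicates 1, 2 and 3), with the mean and SD of each group (n = 3) and axes that start at 0. The IC points of Sdf2l1, Hyou1, Pdia6, Hsp90b1 and Edem1 lie above all vehicle points, with IC 3 highest in each of them.

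Hspa5 itself, the most abundant member of the role and the usual marker of ER stress, was not called. Its normalised counts were 56893, 64978 and 71903 after IC and 54089, 62998 and 58685 in vehicle. The groups overlapped, with IC 1 below Vehicle 2 and Vehicle 3. The log2 fold change was 0.14 (95% interval -0.04 to 0.32, DESeq2 adjusted p = 0.652), so that the interval excludes a rise as large as that of the Hyou1 estimate. This was not a test of Hspa5 against Hyou1. The remaining ER folding genes had DESeq2 adjusted p-values of 0.0615 or more. Manf, a secreted ER protein that binds BiP, had a log2 fold change of 0.47, Pdia4, a disulfide isomerase, 0.38, and Dnajb11 and Dnajc3, BiP co-chaperones, 0.21 and 0.18. Hspa13, an ER-associated HSP70 relative, had 0.06, and Dnajb9, a co-chaperone that returns IRE1 to BiP, was the only one of the 12 below 0 at -0.07.

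The libraries of the IC group differed among themselves in the ER folding genes. Against the vehicle mean, the median log2 ratio over the 12 genes was 0.14 in IC 1, 0.29 in IC 2 and 0.56 in IC 3, and -0.12, 0.09 and -0.00 in Vehicle 1, Vehicle 2 and Vehicle 3. IC 3 was the highest of the 6 libraries for 11 of the 12 genes and Vehicle 1 the lowest for 9. The same library was highest for 4 of 4 degradation genes and for 22 of all 43 members. Without IC 3, the number of members called fell from 5 to 2, Hyou1 and Pdia6. Without it the log2 fold changes were 0.63 for Sdf2l1 (DESeq2 adjusted p = 0.242), 0.28 for Hsp90b1 (0.0642) and 0.27 for Edem1 (0.0800), and 0.46 for Hyou1 (0.0149) and 0.36 for Pdia6 (0.00858). The direction did not turn for any of the 5. IC 3 also had the lowest sums of satellite cell, skeletal muscle, endothelial and macrophage markers of the 6 libraries, and the part of this in the values was not tested.

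**Figure D4:**
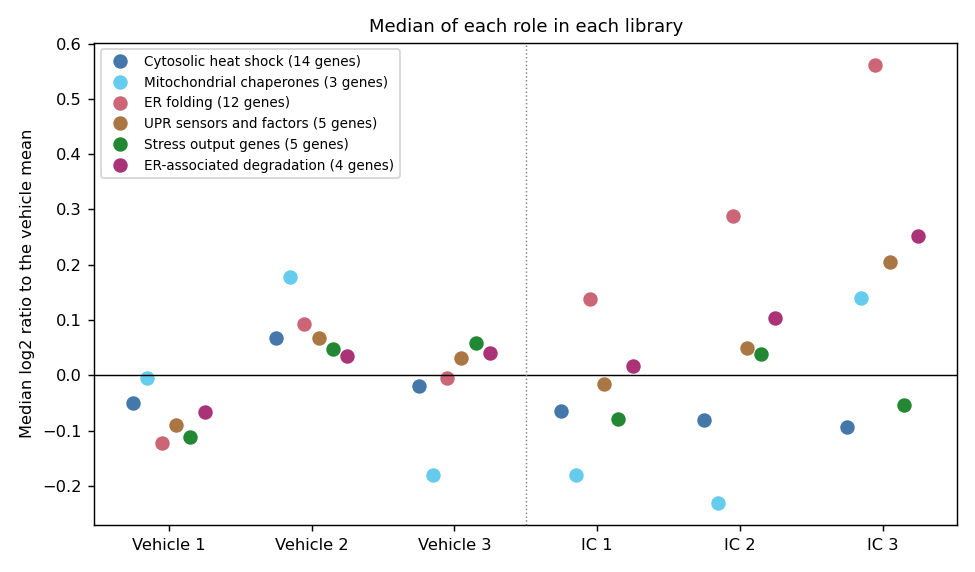
Median over the members of each role of the log2 ratio to the vehicle mean, in each library. ER folding genes stand at 0.56 in IC 3, 0.29 in IC 2 and 0.14 in IC 1, and between -0.12 and 0.09 in the vehicle libraries.

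Genes of ER-associated degradation, which draw misfolded proteins out of the ER for the proteasome, had log2 fold changes above 0 in 4 of 4. Of the 4, 1 was called (25%, against 2.1% of all genes tested). Edem1 takes part in the degradation of misfolded glycoproteins. It had 5331, 5621 and 5969 normalised counts after IC and 4549, 4687 and 4411 in vehicle. The groups lay apart, with little spread within either. The mean rose from 4549 ± 138 to 5640 ± 319 (SD, n = 3 each), 1.24-fold (log2 fold change 0.31, SE 0.0837, DESeq2 adjusted p = 0.0131). Its call was also lost without IC 2 (adjusted p = 0.0663) or Vehicle 3 (0.0960), and that of Sdf2l1 without the same 2 libraries (0.0549 and 0.164, DESeq2).

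Herpud1, the most abundant of these genes and a scaffold of the degradation complex, had 5983, 6592 and 7600 normalised counts after IC and 6286, 6603 and 6573 in vehicle. The groups overlapped, and only IC 3 was above the vehicle libraries. The log2 fold change was 0.05 (DESeq2 adjusted p = 0.938). Syvn1 (HRD1), the ubiquitin ligase of the complex, had 0.16 and its partner Sel1l 0.06, neither called. Summed over the 4 genes, the level was 486.5 to 567.9 CPM after IC and 471.0 to 483.1 CPM in vehicle, which did not overlap, while the sum over the 12 ER folding genes overlapped between the groups (2412 to 3032 and 2223 to 2446 CPM).

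None of the 5 sensors and transcription factors of the unfolded protein response was called by DESeq2 or edgeR, and 0 had an unadjusted p under 0.05 in either. Their median log2 fold change was 0.07. Atf4, the factor translated when PERK is active, had 26027, 26526 and 30323 normalised counts after IC and 24720, 27311 and 26890 in vehicle, which overlapped (log2 fold change 0.07, DESeq2 adjusted p = 0.876). Atf6, the membrane-bound sensor that becomes a transcription factor, was the only one with groups apart. It had 3587, 3509 and 3546 normalised counts after IC and 3792, 4425 and 3688 in vehicle. All 3 IC values were lower, by 0.16 on the log2 scale, and the difference did not pass the test (DESeq2 adjusted p = 0.575). Xbp1 had a log2 fold change of 0.16, Ern1 (IRE1) 0.07 and Eif2ak3 (PERK) 0.08. Gene counts do not separate spliced from unspliced Xbp1.

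The 5 stress output genes, which act late in the ATF4 arm, also held no call, and 0 had an unadjusted p under 0.05 by DESeq2 or edgeR. Ppp1r15a (GADD34), the phosphatase subunit that restores translation, had 24021, 20738 and 21138 normalised counts after IC and 21512, 25325 and 25146 in vehicle. The groups overlapped (log2 fold change -0.13, DESeq2 adjusted p = 0.687). Ddit3 (CHOP), a factor tied to stress-induced cell death, had a log2 fold change of 0.13, Asns, the asparagine synthetase, 0.22, and Trib3, an inhibitor of AKT signalling, -0.11. Chac1 had a log2 fold change of -0.63 with an SE of 0.481, from 65.6 ± 35.4 normalised counts after IC and 101.4 ± 44.0 in vehicle (SD, n = 3 each). Its interval of -1.57 to 0.31 allows a change in either direction at this depth.

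Cytosolic heat shock genes held no call. Of the 14, 10 had a log2 fold change below 0 (71.4%, against 50.4% of all genes tested) and the median was -0.07. Neither DESeq2 nor edgeR called any of them, and 3 had an unadjusted p under 0.05 by DESeq2 and 2 by edgeR. Hspa8 had 66495, 63345 and 70527 normalised counts after IC and 70042, 73355 and 70802 in vehicle. The groups overlapped, since IC 3 was above Vehicle 1, and the log2 fold change was -0.10 (95% interval -0.23 to 0.04, DESeq2 adjusted p = 0.706).

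In 4 of the 14 genes the 3 IC values lay below the 3 vehicle values, with no call (28.6%, against 7.67% of all genes tested). Hsp90aa1, the inducible cytosolic HSP90, had 17847, 17604 and 17520 normalised counts after IC and 19941, 20473 and 18242 in vehicle (log2 fold change -0.15, DESeq2 adjusted p = 0.413). Hspa4, an HSP110 family nucleotide exchange factor, had 4997, 5120 and 5035 after IC and 5291, 5513 and 5317 in vehicle (log2 fold change -0.09, DESeq2 adjusted p = 0.790). These differences were small, and the IC libraries were close to each other in both genes. Hspb1 (HSP25), a small heat shock protein, had 780, 828 and 806 normalised counts after IC and 895, 884 and 1058 in vehicle (log2 fold change -0.23, DESeq2 adjusted p = 0.579). Dnajb4, an HSP70 co-chaperone, had 7035, 6912 and 6921 after IC and 7621, 8472 and 7247 in vehicle (log2 fold change -0.16, DESeq2 adjusted p = 0.451). The vehicle libraries were the more variable in both of these.

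The stress-inducible HSP70 genes Hspa1a and Hspa1b had log2 fold changes of -0.23 (DESeq2 adjusted p = 0.282) and -0.04. Hspa1a had 4774, 4157 and 3977 normalised counts after IC and 4745, 5463 and 4926 in vehicle, and the groups overlapped through IC 1 and Vehicle 1. The pair shares sequence: 38.1% of the 150-base windows of the Hspa1a transcript are also found in Hspa1b, and 40.5% of those of Hspa1b in Hspa1a. A read or read pair that lies wholly within these stretches cannot be placed on either. Hsf1 itself had a log2 fold change of 0.02, Bag3, an HSP70 co-chaperone and HSF1 target, 0.01, Hsph1 (HSP110) -0.00 and Dnajb1 (HSP40) -0.03. Hsp90ab1, the constitutive HSP90, had -0.09 and Dnaja1, an HSP40, 0.06. Hspb8, which works with Bag3 in selective autophagy, was highest of the role at 0.23 (95% interval 0.02 to 0.44, DESeq2 adjusted p = 0.358, and 0.0388 with 1 surrogate variable). Vehicle 2 was the highest library for 9 of the 14 genes.

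Transcript windows of 150 bases shared with another gene were found for 8 members, and the other 35 had none, the 5 called members included. For Hspa8, 55.4% of its windows were found in at least 1 of 4 other genes, 48.7% in Gm15459. For Hsp90aa1 36.2% were found in at least 1 of 3 other genes, and for Hspb1 36.6% in Hsp25-ps1. Hspd1 (18.6%), Hspe1 (14.1%) and Dnaja1 (11.6%) also had shared windows. Values of these 8 members are uncertain for this reason, and the size of that uncertainty was not measured.

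The 3 mitochondrial chaperones held no call by DESeq2 or edgeR, and 0 had an unadjusted p under 0.05 in either. Hspd1 (HSP60), the chamber chaperone of the matrix, had 2814, 3090 and 3417 normalised counts after IC and 3558, 4124 and 3200 in vehicle. IC 3 was above Vehicle 3, so the groups overlapped (log2 fold change -0.22, DESeq2 adjusted p = 0.443). Hspe1 (HSP10), its lid, which shares the promoter sites shown above, had a log2 fold change of 0.01. Hspa9 (mortalin), the matrix HSP70 of protein import, had -0.09.

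Other genes of these pathways gave few calls. Of 53 other heat shock genes, 52 were tested and DESeq2 and edgeR called 0, with 1 and 2 at an unadjusted p under 0.05. Their median log2 fold change was -0.02. Of 50 other ER folding and unfolded protein response genes tested, DESeq2 called 2 higher and 0 lower (4% called, against 2.1% of all genes tested). Their median log2 fold change was 0.09. Calr (calreticulin), a lectin chaperone of glycoproteins, stood at 27807 ± 2199 normalised counts after IC and 22505 ± 1734 in vehicle (SD, n = 3 each; log2 fold change 0.31, DESeq2 adjusted p = 0.0211). Sec61a1, the pore through which proteins enter the ER, stood at 14784 ± 2097 and 11699 ± 919 (SD, n = 3 each; log2 fold change 0.34, DESeq2 adjusted p = 0.0431). Calr was not called without IC 2, IC 3, Vehicle 1 or Vehicle 2, and Sec61a1 without any of these or Vehicle 3. Without IC 3 the only call of the list was another gene, Erlec1, which was lower (log2 fold change -0.35, DESeq2 adjusted p = 0.0406) and is named because that setting called it. The edgeR test called 0 of the 50, with 8 at an unadjusted p under 0.05, as by DESeq2.

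Of 42 other ATF4 and integrated stress genes tested, DESeq2 called 3 higher and 1 lower (9.52% called, against 2.1% of all genes tested). Their median log2 fold change was 0.05. Aldh1l2, a mitochondrial folate enzyme, stood at 1193 ± 182 normalised counts after IC and 644 ± 106 in vehicle (SD, n = 3 each; log2 fold change 0.89, DESeq2 adjusted p = 3.3e-05). Phgdh, the first enzyme of serine synthesis, had a log2 fold change of 0.43 (DESeq2 adjusted p = 0.0403). Eif2ak2 (PKR), an eIF2α kinase that is also an interferon-induced gene, had 0.52 (DESeq2 adjusted p = 0.0359). Vldlr, a lipoprotein receptor, was lower at 2477 ± 208 against 3235 ± 232 normalised counts (SD, n = 3 each; log2 fold change -0.39, DESeq2 adjusted p = 0.0125). Aldh1l2 was called without any 1 of the 6 libraries. Without IC 3 or Vehicle 2 it was the only call of the list, and without IC 2 or Vehicle 3 the list held 2. The edgeR test called 0 of the 42, with 6 at an unadjusted p under 0.05, as by DESeq2.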

How the data were processed

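The deposited values were raw gene counts, made by the authors after trimming with Trim Galore and alignment to mm10 with HISAT2, by featureCounts (tools and build per the labels' processing notes). Versions, annotation and strand setting are not given in the sources used here. The labels name an Illumina stranded kit and the study's methods another stranded kit. Members and lists were chosen with earlier results of these data known. Genes that reached 10 counts in 3 or more libraries (19925 of 24348) were fitted with DESeq2 1.42.0 in R 4.3.3, with default size factors, no covariate and Benjamini-Hochberg adjustment over all genes tested. The 4423 other genes held 0.0429% of counts. DESeq2 gave no adjusted p for 3870 tested genes, and none of these were members. Normalised counts are counts divided by size factors. FPKM used exon lengths of GENCODE M21 (GRCm38), with 23899 symbols matched (98.2%). Promoters were RefSeq's, on GRCm38.p6. Values were printed in every library for members called, members whose groups did not overlap and the member with the highest FPKM of each role, and other pathway genes were named where called. Alternatives were edgeR 4.0.16, TMM scaling, no filter on low counts, a replicate block, 1 surrogate variable (sva 3.50.0) and leaving out each library. Scripts were tested on simulated data with 200 changed genes. At a 1.5-fold change DESeq2 found 57.5% of these genes, and 15.4% of the genes it called had not been changed. At a 2-fold change the same shares were 79.5% and 9.66%. For edgeR they were 50.5% and 7.34% at 1.5-fold, and 78% and 8.77% at 2-fold.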

Additional observations from a re-analysis of the deposited data

How the results depend on the processing

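Of 43 members, DESeq2 called 5 as reported, 5 with TMM scaling and 5 with no count filter, 8 with 1 surrogate variable (Manf, Pdia4 and Hspb8 added) and 2 to 6 without 1 library, and edgeR called 0. Hyou1 and Pdia6 were called without any 1 of the 6 libraries. Without IC 3, 2 members were called, without IC 2 or Vehicle 3, 3. Over all genes, edgeR called 37 against 419, and DESeq2 281 to 677 without 1 library, the highest without Vehicle 1. Of the other heat shock genes, 0 to 1 were called without 1 library, the 1 being Fkbp5, higher without IC 3. Of the other ER folding and unfolded protein response genes, edgeR called 0, and DESeq2 0 to 2 without 1 library: 0 without IC 2, Vehicle 1 or Vehicle 2, and without IC 3 neither Calr nor Sec61a1 but Erlec1, lower. Of the other ATF4 and integrated stress genes, edgeR called 0, DESeq2 with 1 surrogate variable 2, and DESeq2 1 to 4 without 1 library. The log2 fold change turned in sign with 1 surrogate variable for Hspa1b (0.012) and Dnajb1 (0.0066). Without 1 library it turned in sign, with no call, for Hspa1b (-0.11 to 0.022), Hsph1 (-0.073 to 0.079), Dnajb1 (-0.069 to 0.012), Bag3 (-0.027 to 0.045), Hsf1 (-0.020 to 0.046), Hspe1 (-0.14 to 0.11), Hspa13 (-0.053 to 0.14), Atf4 (-0.0012 to 0.11), Herpud1 (-0.044 to 0.13) and Sel1l (-0.018 to 0.11). The cause was not tested.

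Libraries of the 2 groups share replicate numbers in the labels, but correlations of same-numbered libraries' deviations were -0.0918, -0.164 and 0.0250, so the numbers were not taken to pair them. With a replicate block DESeq2 called 3 members (Hsp90b1, Hyou1 and Pdia6), 320 genes in all and 1 of the other ATF4 and integrated stress genes, and the log2 fold change of Hsph1 was 0.0015. With 3 libraries a group the size that could be called was several SEs (median SE 0.0964 over members): the smallest called member difference, that of Edem1, was 0.31 with an SE of 0.0837, and Pdia4, at 0.38 with an SE of 0.146, was not called.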
